A study of Homo sapiens with 6 samples.

Results

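The genes described here are the epidermal growth factor (EGF) receptors EGFR and ERBB2, the ligands AREG, EREG, HBEGF, TGFA and BTC, the adaptor GRB7 and the receptor inhibitor ERRFI1, 9 genes in all. They were taken by name, with earlier results of these data known. The exception is GRB7, which was chosen by a measured value: a probe of it was above background in the control cultures and not in the others. The annotation of the array lists 16 probes for 8 of the 9 genes, among 48799 probes with values. It lists none for AREG, which was not analysed here. Of these 8 genes, 7 passed the detection filter and 6 were tested, since the value that chose GRB7 leaves it no test.

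The samples were RWPE-1 cells, an immortalised, non-tumorigenic line of human prostate epithelium, so all cultures share 1 genetic background. Cells were given 100 nM of LNA-205, an antisense oligomer of locked nucleic acid against miR-205, or 100 nM of LNA-Scr, a scrambled control, and RNA was taken 72 h later. Each oligomer was transfected in triplicate, the control as replicates A, B and C and the antisense oligomer as replicates D, E and F, with 1 Illumina bead array per sample. The comparison asks which EGF receptor pathway transcripts differ between cells with and without antisense silencing of miR-205. Mature miR-205 is not read by these arrays, and the silencing itself was not measured.

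EGF receptors are membrane tyrosine kinases. Ligands are made as membrane-bound precursors, are cut free by proteases of the ADAM family and bind EGFR, which then pairs with another EGFR or with ERBB2. ERBB2 binds no ligand of its own and acts as the partner. The paired receptors are phosphorylated, bind adaptors with SH2 domains such as GRB2, SHC1 and GRB7, and switch on the RAS-MAPK and PI3K-AKT cascades. In stratified and basal epithelia this pathway is known for driving proliferation and migration, and cultured epithelial cells make several of the ligands themselves. ERRFI1 (MIG6) is induced by the pathway and binds the receptor kinase domain to shut it off.

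The oligomer LNA-205 acts on the mature microRNA, shown here because it is the agent that separates the groups. The sequences are from RefSeq on GRCh38.p14, where hsa-miR-205-5p lies on the plus strand at chr1:209432166-209432187, and capitals mark the seed, bases 2 to 8 from the 5′ end.
hsa-miR-205-5p: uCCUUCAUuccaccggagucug
The 7 bases of a transcript that would pair with this seed are AUGAAGG. Transcript sequences of the members were not used here, so no site was looked for.

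The labelled cell type was checked first. Of 6 basal epithelial markers, 5 were measured, among them KRT5, KRT14, ITGB4 and LAMB3, and TP63 has no listed probe. Of the luminal prostate markers 0 of 6 passed the detection filter, of the stromal markers 0 of 5, of the immune and endothelial markers 0 of 5 and of the neuroendocrine markers 0 of 3. Between 12585 and 14195 probes per array were above background, taken as a detection p under 0.01 against the negative control beads. The lowest normalized log2 intensity of a probe above background was between 7.11 and 7.20 on LNA-Scr replicates A and B. On the other 4 arrays it was between 7.38 and 7.66, with the highest on LNA-Scr replicate C. A dim probe thus passed more easily on LNA-Scr replicates A and B. In the fit over all 10803 features, 1 passed an adjusted p of 0.05 (limma, Benjamini-Hochberg), which is 0.00926%, and it was not a member.

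None of the 6 tested genes of the EGF receptor group passed the test: 3 had a higher and 3 a lower mean in LNA-205 cultures, with log2 differences from −0.14 for EGFR to 0.20 for EREG. Their median log2 difference was 0.01, where the median over all features was −0.00089. The limma adjusted p lay between 0.845 and 0.990, and 0 of the 6 had an unadjusted p under 0.05, against 6.26% of all features. The 95% intervals leave room for differences of up to 0.74 on the log2 scale for EREG and up to 0.38 for the other 5, so these values do not show that the genes were equal in both groups. The members share the same 6 RNA samples, and in RNA of whole cultures fewer expressing cells and less RNA per cell cannot be told apart.

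**Figure D1:**
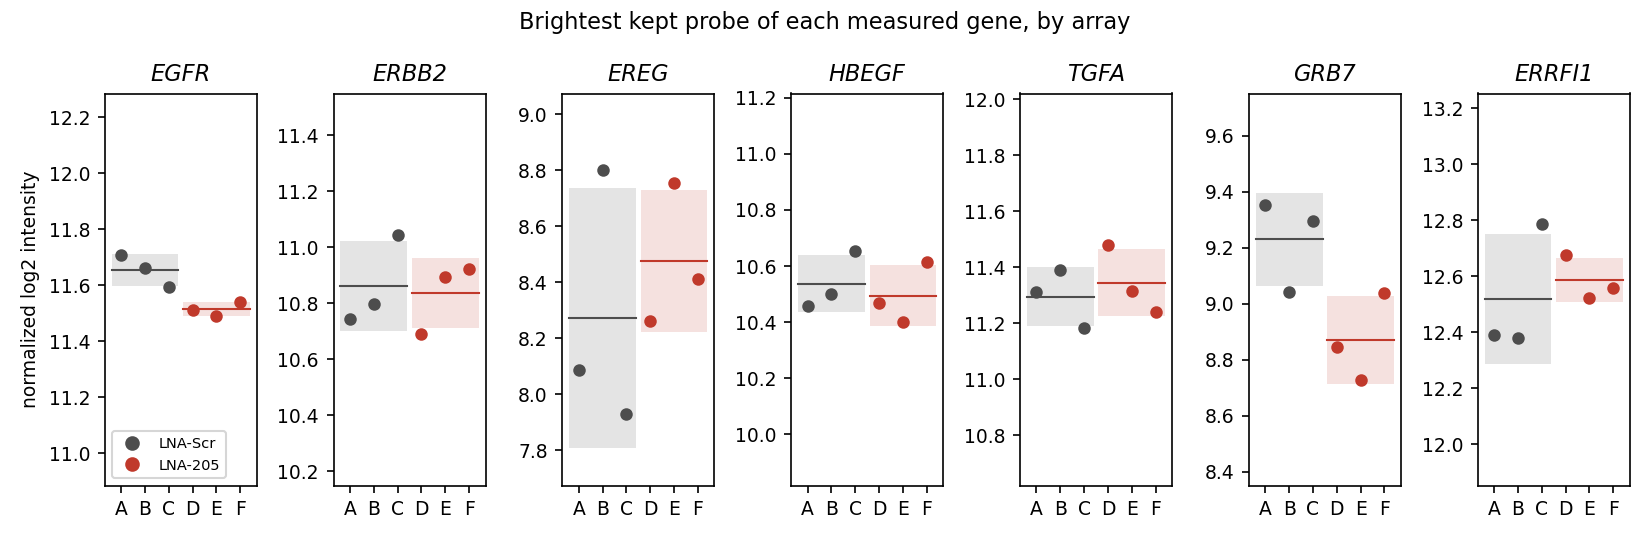
Normalized log2 intensity (vertical axes, each spanning the same range) of the brightest kept probe of the 7 measured genes on each array (letters A to F), with LNA-Scr in grey and LNA-205 in red. Lines are group means and bands are ± 1 SD (n = 3). Only EGFR and GRB7 have groups that do not overlap, with EGFR differing by 0.14 and GRB7 by 0.36. Among all features 5.78% had lower and 6.38% had higher LNA-205 values without overlap, and GRB7 was chosen by its detection.

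EGFR, the receptor of all 5 ligands, had slightly lower values in every LNA-205 culture. The probe for its full-length transcript (ILMN_1798975) read a normalized log2 intensity of 11.71, 11.66 and 11.59 on LNA-Scr replicates A, B and C. On LNA-205 replicates D, E and F it read 11.51, 11.49 and 11.54. The lowest control value thus lay above the highest LNA-205 value, by less than 0.1 log2 units. Group means were 11.65 ± 0.06 and 11.51 ± 0.02 (SD, n = 3 each). The mean was 1.10-fold lower in LNA-205, a log2 difference of −0.14 (SE 0.10, 95% interval −0.36 to 0.08), with a limma adjusted p of 0.845. EGFR was the 1 tested member of 6 whose groups did not overlap, and among all features 5.78% had lower and 6.38% had higher LNA-205 values without overlap. On the scanner scale, before normalization, the EGFR groups did overlap, since LNA-Scr replicate C read 3162.8 intensity units and LNA-205 replicate D 3266.8.

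The second kept EGFR probe did not show the same order. ILMN_1696521, annotated to another transcript variant of the receptor, read 9.41, 9.20 and 8.80 in LNA-Scr and 9.40, 9.29 and 8.81 in LNA-205. Both groups covered almost the same range, and the log2 difference was 0.03 (SE 0.20, limma adjusted p = 0.992 with every probe as its own feature). With the mean of both kept probes, the EGFR log2 difference was −0.06, closer to 0 than that of the brighter probe alone. On no array were the remaining 2 EGFR probes, ILMN_1755535 and ILMN_1728858, well above background. ILMN_1755535 is annotated to the same variant as ILMN_1696521, so which transcripts ILMN_1696521 reads is uncertain. At a detection p under 0.05, ILMN_1728858 was above background on 3 LNA-Scr arrays and 1 LNA-205 array. It read 6.91, 6.63 and 6.76 in LNA-Scr and 6.21, 6.36 and 6.85 in LNA-205. Its mean was lower in LNA-205, as that of the brightest probe was, but its groups overlapped, and no fold is given this close to background.

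ERBB2, the partner receptor, was detected by 1 of its 3 probes, on all 6 arrays. ILMN_2352131 read 10.74, 10.80 and 11.04 in LNA-Scr and 10.69, 10.90 and 10.92 in LNA-205, so the groups lay inside one another's range except for the extremes, C at the top and D at the bottom. The log2 difference was −0.03 (SE 0.12, 95% interval −0.31 to 0.26, limma adjusted p = 0.990). On no array did its other probes, ILMN_1728761 and ILMN_1717902, read well above background.

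Among the ligands, EREG (epiregulin, which binds EGFR and ERBB4) varied most between cultures. It read 8.09, 8.80 and 7.93 in LNA-Scr and 8.26, 8.76 and 8.41 in LNA-205. The highest value of all belonged to LNA-Scr replicate B and the 2 lowest to LNA-Scr replicates C and A, so the control cultures alone spanned the whole range. The log2 difference was 0.20 (SE 0.23, 95% interval −0.33 to 0.74, limma adjusted p = 0.916). One culture moved this value widely: it was 0.47 without LNA-Scr replicate B and 0.03 without LNA-Scr replicate C, and did not pass the test in either case (limma adjusted p = 0.866 and 0.986).

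HBEGF, the heparin-binding ligand that is held at the surface of epithelial cells until it is cut, read 10.46, 10.50 and 10.65 in LNA-Scr and 10.47, 10.40 and 10.61 in LNA-205. The log2 difference was −0.04 (SE 0.11, 95% interval −0.30 to 0.21, limma adjusted p = 0.973). The groups overlapped almost fully, with one high array in each.

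TGFA, a ligand that binds EGFR alone, was read by a pair of probes on all 6 arrays. ILMN_2083946 gave 11.31, 11.39 and 11.18 in LNA-Scr and 11.48, 11.32 and 11.24 in LNA-205, with a log2 difference of 0.05 (SE 0.11, 95% interval −0.21 to 0.31, limma adjusted p = 0.962). ILMN_1805175, annotated to a second transcript variant, gave 10.54, 10.53 and 10.79 in LNA-Scr and 10.67, 10.85 and 10.63 in LNA-205, with a log2 difference of 0.09 (SE 0.12, limma adjusted p = 0.930 with every probe as its own feature). Both probes had overlapping groups and a slightly higher LNA-205 mean, although replicate C was the lowest control culture by the first probe and the highest by the second.

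BTC (betacellulin), a ligand of EGFR and ERBB4, did not read well above background in any culture. Its detection p was between 0.0751 and 0.370 in LNA-Scr and between 0.238 and 0.491 in LNA-205, so no fold is given. RefSeq's gene order on GRCh38.p14 places AREG between EREG and BTC on chromosome 4. Of this ligand cluster only EREG was therefore measured.

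ERRFI1, the inhibitor that is induced by receptor activity, read 12.39, 12.38 and 12.79 in LNA-Scr and 12.67, 12.52 and 12.56 in LNA-205. Replicates A and B of the control were lowest, while replicate C was higher than every LNA-205 culture. The log2 difference was 0.07 (SE 0.14, 95% interval −0.24 to 0.38, limma adjusted p = 0.957). The spread within LNA-Scr (SD 0.23) was wider than that within LNA-205 (SD 0.08).

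**Figure D2:**
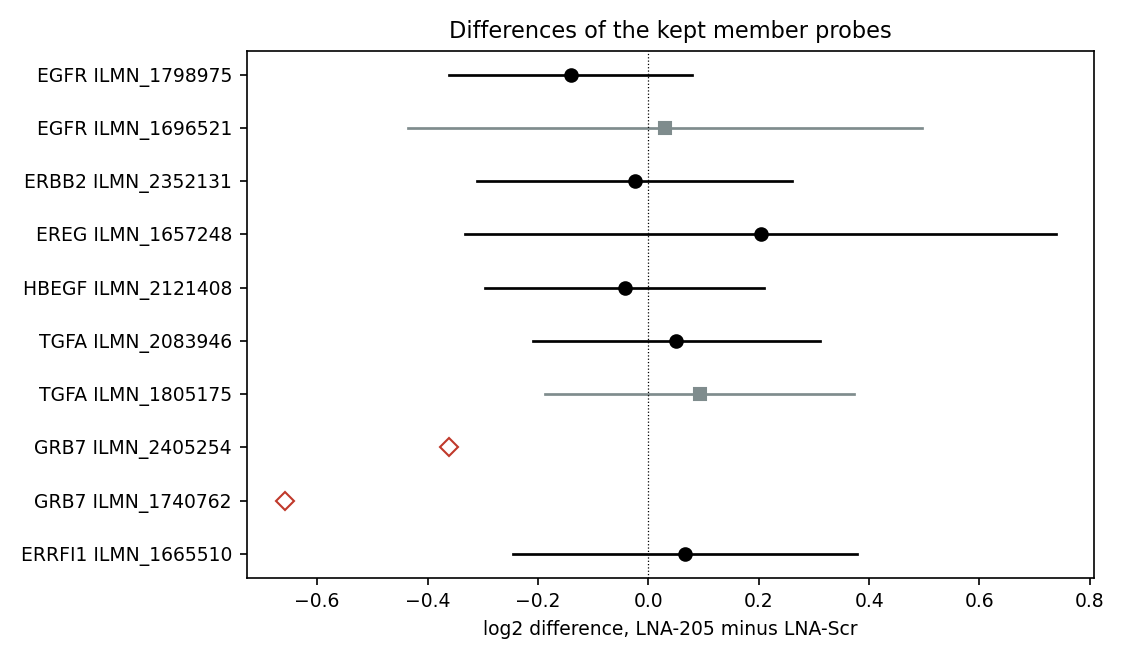
Log2 difference, LNA-205 minus LNA-Scr (horizontal axis), of the 10 kept member probes, where black circles are the brightest probe of a gene with its 95% interval from limma and grey squares are further probes with theirs. The 6 tested genes all have intervals that include 0; open diamonds are the GRB7 probes (−0.36 and −0.66), given without an interval because GRB7 was chosen by its detection.

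GRB7 is an SH2 adaptor that binds ERBB2 and EGFR and is known for a role in cell migration. By its brightest probe, ILMN_2405254, every LNA-205 culture read lower than the controls, by 0.0052 at the closest. The choice of GRB7 rested on its other kept probe, ILMN_1740762, which passed the filter only through the LNA-Scr arrays. Lower LNA-205 values of ILMN_1740762 follow largely from that choice and add nothing to those of the brightest probe. What follows describes these arrays and is no test. ILMN_1740762 was above background on all 3 LNA-Scr arrays, with a detection p of 0.00527, 0.00527 and 0.00659, and on 0 LNA-205 arrays, with 0.0329, 0.0237 and 0.0132. The values lay close to the threshold of 0.01 on both sides. At a detection p under 0.05, the same probe was above background on all 3 arrays of each group.

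The normalized log2 intensity of ILMN_1740762 was 7.36, 7.68 and 7.83 in LNA-Scr and 6.85, 6.78 and 7.27 in LNA-205. The groups did not overlap, and the lowest control, A, lay 0.093 above the highest LNA-205 value, F. Replicate A passed on an array whose lowest probe above background stood at 7.11, and the same log2 intensity would have stood below the corresponding values of all 3 LNA-205 arrays, 7.64, 7.42 and 7.38. With each LNA-205 array entered at that lowest value above background in place of the dimmer reading, the LNA-205 mean was 1.11-fold lower. This figure rests on the probe and the threshold that chose GRB7. LNA-Scr replicate A itself lay below all 3 of the values entered, so the figure is not read as a minimum difference. The measured means were 7.62 ± 0.24 and 6.97 ± 0.27 (SD, n = 3 each).

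The pattern of detection on every LNA-Scr and no LNA-205 array was shared by 39 probes, 0.291% of the 13423 that passed the detection filter. The opposite pattern was found for 6 probes, 0.0447%. The lowest value above background was lowest on LNA-Scr replicates A and B (7.11 and 7.20) and highest on LNA-Scr replicate C (7.66). The pattern needs detection on all of these arrays, and the part of these limits in the imbalance was not tested.

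The brightest GRB7 probe, ILMN_2405254, was above background on all 6 arrays, so by this probe GRB7 was detected in both groups and not only in the controls. It read 9.354, 9.043 and 9.297 in LNA-Scr and 8.847, 8.728 and 9.037 in LNA-205. The groups touched, with LNA-Scr replicate B 0.0052 above LNA-205 replicate F. The means were 9.23 ± 0.17 and 8.87 ± 0.16 (SD, n = 3 each), a log2 difference of −0.36, or a 1.28-fold lower mean. On the scanner scale, this probe read 759.8, 790.0 and 788.5 intensity units in LNA-Scr and 671.0, 624.5 and 656.1 in LNA-205, again without overlap. In the authors' processed values the log2 difference was −0.27 for this probe and −0.32 for ILMN_1740762, and the groups did not overlap for either. These scales are readings of the same 6 arrays, and among all features 5.78% had lower LNA-205 values without overlap. The third probe, ILMN_1798582, stood well above background on none of the arrays.

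**Figure D3:**
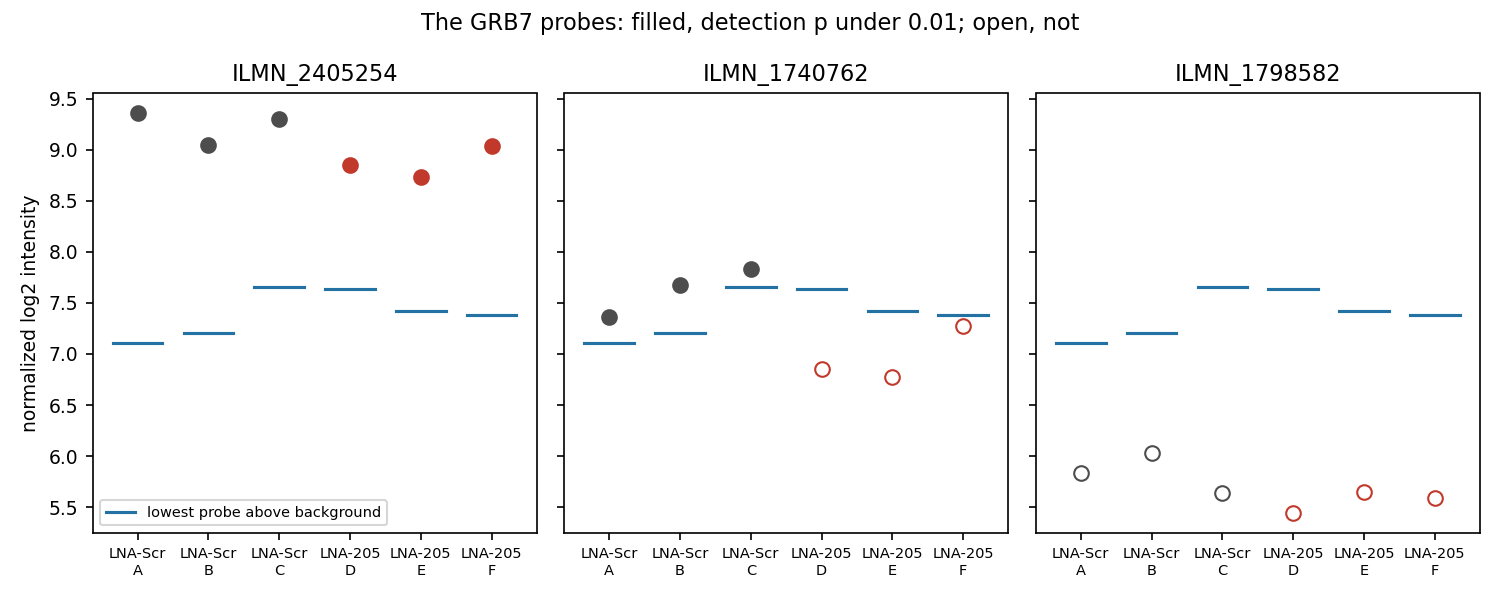
Normalized log2 intensity (vertical axis) of the GRB7 probes on each array (horizontal axis), grey for LNA-Scr and red for LNA-205; filled points have a detection p under 0.01 and blue lines mark the lowest probe above background on that array, 7.11 to 7.66. The left probe is above the line on all 6 arrays, the middle one on the 3 LNA-Scr arrays and the right one on none.

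The 3 features whose array profile was most like that of the brightest GRB7 probe, ILMN_2405254, were ILMN_1675946, ILMN_1750674 and RNF19A, which encodes a ubiquitin ligase. Likeness was the root mean square difference of mean-centred log2 values over the 6 arrays, and it was 0.0548, 0.0560 and 0.0620, against a median of 0.269 over all features. As the nearest of all features they had to lie below that median, so these distances are a description and no test. No table used here names the first 2 probes.

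GRB7 and ERBB2 lie close together on chromosome 17, with only MIEN1 between them among protein-coding genes in RefSeq's order, and they are often amplified together in tumours. Of the 7 other measured genes of this neighbourhood, ERBB2 included, 0 had lower values in LNA-205 without overlap of the groups and 1, MED1, had higher ones. With 5.78% lower and 6.38% higher among all features, 7 genes are too few to read anything from these counts. PGAP3, on the other side of ERBB2 and an enzyme of GPI-anchor maturation, had a log2 difference of 0.17 (SE 0.16). STARD3, a late-endosomal cholesterol transporter, differed by 0.04 (SE 0.20). MIEN1, a membrane-anchored promoter of migration, differed by −0.29 (SE 0.36), with readings from 6.56 to 8.11 within LNA-205 alone. MED1, a Mediator subunit further away, read 9.79, 9.70 and 9.82 in LNA-Scr and 10.16, 10.10 and 10.01 in LNA-205, a log2 difference of 0.31 (SE 0.10, limma adjusted p = 0.690). CDK12, a kinase of transcription elongation, differed by −0.14 (SE 0.11). Of the 15 genes of this chromosomal list, 8 were measured; without GRB7, 0 of 7 passed the test, 4 were higher and 3 lower, and the median log2 difference was 0.04.

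Across the wider pathway, 70 of 100 genes in 8 lists by role were measured, with GRB7 and the chromosomal list left out, and 0 passed the test in either direction (smallest limma adjusted p = 0.690). Of these, 30 had a higher and 40 a lower mean in LNA-205, with a median log2 difference of −0.02. An unadjusted p under 0.05 was found for 4 of the 70, or 5.71%, against 6.26% of all features. By the brightest probe of each gene, the groups did not overlap for 5 lower genes (7.14%, against 5.78% of all features) and for 3 higher ones (4.29%, against 6.38%). A further probe each of ADAM10 (−0.40), GRB10 (−0.39), USP8 (−0.33), ADAM15 (−0.30) and AKT1 (−0.12) was also lower without overlap. For all other further probes of these lists the groups overlapped, so none was higher without overlap. The share among further probes of all genes was not computed. No share is read as particular to the pathway.

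NRG1 (neuregulin 1), a ligand of ERBB3 and ERBB4, had the smallest p of the ligand list. It read 10.74, 10.76 and 10.53 in LNA-Scr and 10.21, 10.29 and 10.36 in LNA-205. The groups did not overlap, and the log2 difference was −0.39 (SE 0.11, 95% interval −0.64 to −0.14), but the limma adjusted p was 0.690 and a second kept probe, ILMN_1844593, differed by −0.02. EGF itself and ERBB4 stood well above background on none of the arrays, and EPGN has no listed probe. Of the 11 ligands 4 were measured, EREG, HBEGF, TGFA and NRG1, and their median log2 difference was 0.00379. ERBB3, a receptor that pairs with ERBB2, read between 8.80 and 9.11 in LNA-Scr and between 8.99 and 9.34 in LNA-205. Its log2 difference was 0.15 (SE 0.14, limma adjusted p = 0.893), with 0.01 from a second kept probe.

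Among adaptors, 0 of 13 measured genes passed, 7 were higher and 6 lower, and the median log2 difference was 0.00184. GRB10 and GRB14, the family relatives of GRB7, differed by 0.03 (SE 0.15) and −0.10 (SE 0.13) by their brightest probes, and by −0.39 and 0.38 by their second ones. For neither relative did the probes run the same way. GRB2, which links receptors to the RAS activator SOS, differed by 0.04 (SE 0.13) and by −0.07 by a second probe. SHC1, another phosphotyrosine adaptor, differed by −0.23 (SE 0.12), and its further probes gave −0.39 and 0.08. NCK1, an adaptor to the actin machinery, differed by 0.21 (SE 0.14).

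The list of factors that free the ligands, which holds ADAM proteases and the inactive rhomboids that help ADAM17 mature, had 6 measured genes of 7. Of these 0 passed, 4 were higher and 2 lower, with a median log2 difference of 0.04. ADAM17, the main sheddase of TGFA, AREG and HBEGF, differed by 0.15 (SE 0.16), with 0.13 from a second probe. ADAM15 differed by −0.12 (SE 0.14), and its further probes gave 0.01 and −0.30. ADAM10 differed by 0.07 (SE 0.11), although a second probe gave −0.40.

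Of the inhibitors that damp receptor signalling, 17 of 19 were measured, ERRFI1 included. None passed the test, 7 were higher and 10 lower, and the median log2 difference was −0.04. RNF41, a ubiquitin ligase that lowers ERBB3, had the smallest p of the higher ones at 0.37 (SE 0.16, limma adjusted p = 0.790). SPRED1, an inhibitor of RAS activation, was its counterpart at −0.23 (SE 0.13). DUSP6, the ERK phosphatase, differed by −0.19 (SE 0.15), LRIG1, which promotes receptor degradation, by −0.14 (SE 0.12) and SPRY2, a feedback inhibitor, by −0.08 (SE 0.12).

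Downstream genes did not pass either. In the RAS-MAPK cascade 6 of 13 genes were measured, 3 higher and 3 lower, with a median log2 difference of −0.00722, MAP2K2 at −0.13 (SE 0.14) and MAPK3 at 0.02 (SE 0.16). In the PI3K-AKT list 6 of 12 were measured, again 3 higher and 3 lower, with a median of 0.07. PDPK1, the kinase that activates AKT, differed by 0.26 (SE 0.10, limma adjusted p = 0.773), although a second probe gave −0.10, and PIK3R1, a PI3K regulatory subunit, differed by −0.17 (SE 0.16).

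Genes known to respond to ERK were the least evenly split of the 9 lists: 15 of 16 were measured, 3 higher and 12 lower in LNA-205. Their median log2 difference was −0.09 beside −0.00089 for all features, of which 49.8% were higher, and 0 of the list passed the test. The list is singled out after the fact and its genes share the same 6 RNA samples, so the split is not read as a result. FOSL1 (FRA-1), an AP-1 factor stabilised by ERK, read 11.34, 11.41 and 11.22 in LNA-Scr and 10.93, 11.06 and 10.98 in LNA-205. Its groups did not overlap, and the log2 difference was −0.34 (SE 0.10, 95% interval −0.58 to −0.10, limma adjusted p = 0.690). PHLDA1, another gene induced by EGF, differed by −0.02 (SE 0.13). JUN, an AP-1 partner of FOSL1, ran the other way at 0.28 (SE 0.29), with readings from 11.07 to 12.11 in LNA-Scr and from 11.46 to 12.32 in LNA-205.

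**Figure D4:**
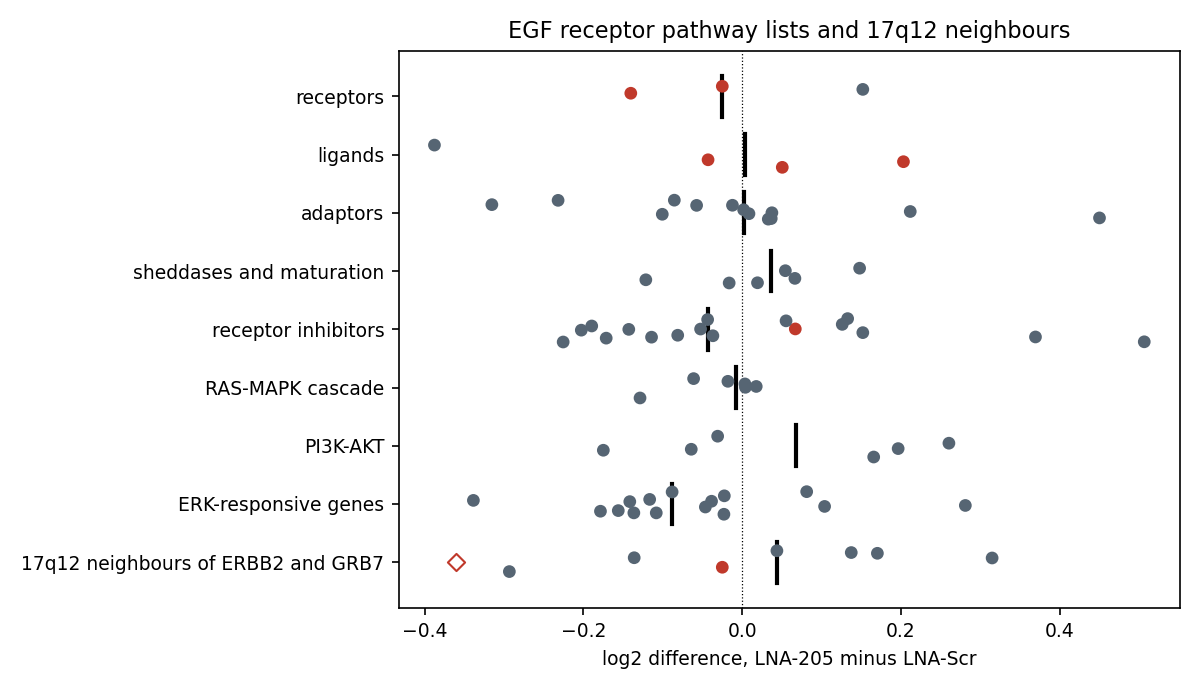
Log2 difference, LNA-205 minus LNA-Scr (horizontal axis), of each measured gene of 8 pathway lists ordered by role and of the chromosomal list around GRB7, with members of the EGF receptor group in red, other genes in grey, GRB7 as an open diamond and the list median without GRB7 as a black bar. Medians lie between −0.09 (ERK-responsive genes) and 0.07 (PI3K-AKT), and no gene shown passed the test.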

How the data were processed

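The deposited unnormalized table holds log2 probe intensities, and the deposited detection p-values, 1 column per array per the file headers, compare each probe with negative control beads in steps of 0.00132. The deposited processed log2 values served as an alternative and were normalized by a method not given in the sources used here, and lumi is named per the submitters' processing notes without a role. Intensities were background-corrected with limma's neqc (offset 16), quantile normalized and put on the log2 scale. Of 48803 probe rows 4 held no values. Probes with a detection p under 0.01 on at least 3 of the 6 arrays were kept (13423), named from the platform annotation updated through RefSeq gene identifiers. The brightest kept probe stood for a gene, and unnamed probes stood alone (10803 features). limma 3.58.1 in R 4.3.3 (lmFit, eBayes, two-sided) tested LNA-205 against LNA-Scr, adjusted by Benjamini-Hochberg over all features. In 20 simulations of this comparison on 10803 features, 200 features were changed, with normal noise whose variances were drawn from the fit. The test called 13.5% of log2 changes of 0.5, 86.2% of those of 1, 96.4% of those of 1.5 and 98.9% of those of 2. With fewer changed features the adjustment is stricter. In the data 1 feature passed, so these rates can overstate what the test would find here.

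The members and lists were chosen with earlier results of these data known. Named genes are all members, the list gene with the smallest p in each direction and 19 genes fixed by name. Pathway genes with a further probe lower without overlap are named as well. KRT5, KRT14, ITGB4, LAMB3 and TP63 are named as markers. Fits without 1 array kept the normalization, filter and features of all 6 arrays. Replicates are transfections of 1 line, so p-values measure the spread between these cultures.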

Additional observations from a re-analysis of the deposited data

How the results depend on the processing

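All 16 alternatives left the 6 tested members uncalled (limma adjusted p from 0.516 to 0.999). The number of features past the threshold, 1 with the settings used here, was 0 without a detection filter, at a detection p under 0.05, with a gene's probes averaged and with each probe tested separately. It was also 0 (lowest and highest 0) with any 1 array left out. It was 3 with an intensity trend, none of them a member. The cause was not tested. EGFR kept its sign under all 16 alternatives (−0.30 to −0.06), as did EREG (0.03 to 0.47) and GRB7 (−0.51 to −0.27). Many of these outcomes were fixed in advance. Changing the detection filter, testing each probe separately or adding an intensity trend left the 3 values as they were. Where groups do not overlap, as for EGFR and GRB7, leaving out 1 array cannot turn the sign. GRB7 was also chosen by its detection, so its kept sign is no support. Leaving out 1 array turned the sign of ERBB2 (−0.084 to 0.067), HBEGF (−0.10 to 0.014), TGFA (−0.016 to 0.10) and ERRFI1 (−0.0036 to 0.20). Scaling to equal medians gave TGFA −0.12 and ERRFI1 −0.11. That scaling moved the median of all features to −0.16, and relative to it TGFA was at 0.04, ERRFI1 at 0.05, EGFR at −0.14 and GRB7 at −0.35. The 9 lists had 0 members past the threshold in all 144 combinations of list and alternative. No paired analysis was possible because the replicate letters are not shared between the groups. With 3 arrays per group, log2 differences of about 0.5 were mostly not detectable.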
